A study of Rattus norvegicus with 6 samples.

Results

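Several brain-expressed genes of the rat carry a microRNA (miRNA) hairpin inside their transcription unit, among them Tenm4 with miR-708, Pde2a with miR-139, Ptk2 with miR-151, Astn1 with miR-488 and Ptprn2 with miR-153. Their mature arms were described in medial prefrontal cortex, a frontal brain area involved in mood and in the control of the stress response. Rows of the deposited table were taken by name, with any arm suffix and without predicted miRNAs. This gave 10 of 1465 rows, or 10 of the 694 annotated ones, namely rno-miR-708-5p, rno-miR-708-3p, rno-miR-139-5p, rno-miR-139-3p, rno-miR-151-5p, rno-miR-151-3p, rno-miR-488-5p, rno-miR-488-3p, rno-miR-153-5p and rno-miR-153-3p (the prefix is left out from here on). They were chosen by name and host gene, with their levels in these 6 libraries and the low values of Control 1 in view, so their levels, deviations and differences are given as descriptions. The p-values printed beside them are those of the fit over the whole table and lend no support to the choice.

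Total RNA came from 6 rats with 1 library each, as the labels describe. The 3 Control rats stayed undisturbed over 4 weeks, apart from handling and cleaning. The 3 chronic mild stress (CMS) rats met foot shock, restraint, cold swimming, tail clipping, cage tilt, reversed lighting and deprivation of food or water in random order over the same 4 weeks, a procedure used as a rodent model of depression. No drug, transgene or mutation is named for either group, and the labels give no strain, sex or age. Values were normalized by the authors and rounded to whole numbers, which sum to between 709674 and 736078 per library, so the sequencing depth behind them is unknown. As a check of the tissue, miR-124-3p, a miRNA of neurons, had values of 2059 to 2562, while miR-122-5p, a miRNA of liver, had values of 6 to 13. Because whole tissue was used, fewer cells of a type and less RNA per cell cannot be told apart.

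An intronic miRNA is cut by Drosha from the transcript of its host gene, and Dicer then cuts the hairpin into a 5p and a 3p arm, of which Argonaute usually keeps mainly a single one. The mature arm pairs with messenger RNAs through its seed, bases 2 to 8 from the 5′ end, and represses them. Because host and miRNA can share a promoter, the level of such a miRNA is often read beside that of its host, but host messenger RNAs were not measured here. Tenm4 encodes a teneurin, a transmembrane protein of cell adhesion and myelination. Pde2a encodes a phosphodiesterase that breaks down cyclic nucleotides. Ptk2 encodes focal adhesion kinase, Astn1 encodes astrotactin, which neurons use to migrate along glia, and Ptprn2 encodes phogrin, a protein of dense-core vesicles.

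Each of the 5 hairpin genes lies within the span of its named host gene in RefSeq's gene table for the GRCr8 assembly, a table that does not separate introns from exons. Mature sequences of 8 of the 10 arms were found by name among RefSeq's GRCr8 miRNAs, and they are shown because the seed decides which transcripts each arm can pair with. Capitals mark the seed, and the arms of miR-28, from the gene Lpp, are added because they resemble those of miR-708.
miR-708-5p: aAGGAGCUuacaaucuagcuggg
miR-28-5p: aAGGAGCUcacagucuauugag
miR-708-3p: cAACUAGAcugugagcuucuag
miR-28-3p: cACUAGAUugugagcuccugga
miR-139-5p: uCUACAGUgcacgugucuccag
miR-139-3p: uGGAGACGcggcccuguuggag
miR-488-5p: cCCAGAUAauggcacucucaa
miR-488-3p: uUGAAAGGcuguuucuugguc
miR-153-5p: gUCAUUUUugugauguugcagcu
miR-153-3p: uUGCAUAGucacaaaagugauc

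Among 693 distinct mature rat miRNAs in that table, the seed of miR-708-5p is shared with miR-28-5p and with no other. Their sequences are identical at 16 of 22 aligned bases. The 3p arms of both hairpins are identical at 17 of 21 bases once miR-28-3p is shifted by 1 base, so their seeds differ. No other mature miRNA in the table has the seed of miR-139-5p, miR-139-3p, miR-488-5p, miR-488-3p, miR-153-5p, miR-153-3p or miR-708-3p. For miR-153-3p, bases 2 to 7 alone are shared with miR-448-3p. In GRCr8, miR-708-5p lies at chr1:160011168-160011190 and miR-139-5p at chr1:165290865-165290886. On the other chromosomes, miR-488-3p lies at chr13:73216589-73216609 and miR-153-3p at chr6:144306646-144306667, and all 4 are on the plus strand.

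The 10 arms spanned a wide range of normalized values, compared here between mature RNAs of nearly equal length (21 to 23 bases where known). The most abundant was miR-139-5p, with a mean of 3534 over the 6 libraries, which placed it 38th among the 502 annotated miRNAs with any value. After it came miR-488-3p with a mean of 1278 and miR-151-3p with a mean of 826. Next stood both arms of miR-708, with means of 438 for 3p and 433 for 5p, followed by miR-151-5p with 207 and miR-153-3p with 162. The remaining arms were low, with means of 66.7 for miR-139-3p, 13 for miR-153-5p and 4.5 for miR-488-5p. Over the 6 libraries, the values of neighbours in this order overlapped at every step from miR-151-3p down to miR-139-3p and between miR-153-5p and miR-488-5p. They did not overlap at the steps from miR-139-5p to miR-488-3p, from miR-488-3p to miR-151-3p and from miR-139-3p to miR-153-5p. Compared within each library, miR-151-3p was always above miR-708-3p, miR-708-5p above miR-151-5p and miR-153-5p above miR-488-5p. At the other overlapping steps the order changed between libraries.

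**Figure D1:**
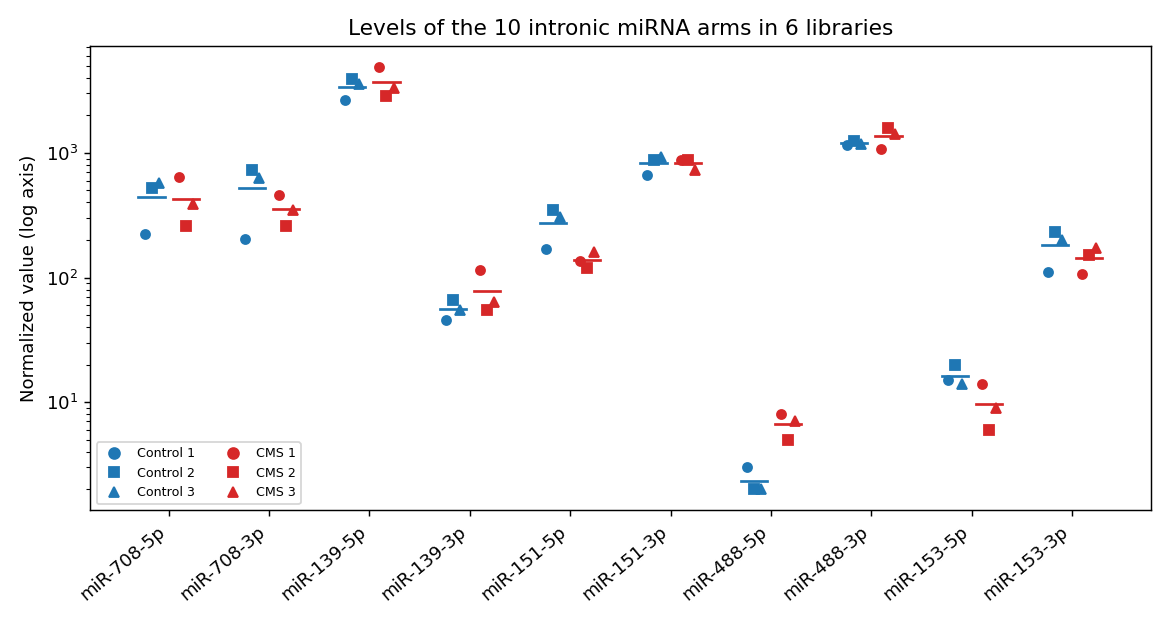
Normalized values (log axis) of the 10 arms in each of the 6 libraries, with a bar at each group mean. Both arms of miR-708 are lowest in Control 1, at 224 and 202, and miR-151-5p lies between 119 and 161 in all CMS libraries, below all 3 Controls.

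For both arms of miR-708 the SD among the Controls, 280.3 for 3p and 188 for 5p, was larger than the difference between the group means, from 521 to 355 and from 440 to 427. The level of miR-708-3p was 202 in Control 1, 728 in Control 2 and 633 in Control 3, against 461, 259 and 345 in CMS 1, 2 and 3. Control 1 was thus the lowest of all libraries and the other Controls were the highest. The level of miR-708-5p was 224, 526 and 569 in Controls 1 to 3 and 637, 257 and 386 in CMS 1 to 3. Here CMS 1 was the highest library, and the groups overlapped. In the fit over all 657 miRNAs tested (those at 1 or more in 3 or more libraries), the log2 difference, CMS minus Control on log2(value + 1), was -0.39 ± 0.53 (SE) for miR-708-3p and -0.03 ± 0.48 for miR-708-5p (limma adjusted p = 0.682 and 1). In mouse, miR-708 is known as a miRNA induced together with its host gene in stress of the endoplasmic reticulum.

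The level of its seed partner miR-28-5p was 62, 51 and 66 in Controls 1 to 3 and 67, 63 and 67 in CMS 1 to 3, with no library far from the others. The level of miR-28-3p was 79, 87 and 104 in Controls 1 to 3 and 142, 126 and 125 in CMS 1 to 3, so every CMS library stood above every Control library. Its log2 difference was 0.54 ± 0.14 (SE), which did not pass (limma adjusted p = 0.0914). No test of the difference between the hairpins of miR-28 and miR-708 was made.

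The host gene of miR-139 encodes an enzyme that ends cyclic nucleotide signals. The level of miR-139-5p was 2658, 3884 and 3564 in Controls 1 to 3 and 4878, 2881 and 3336 in CMS 1 to 3. CMS 1 was the highest and Control 1 the lowest of the 6, and the groups overlapped. The minor arm miR-139-3p followed, with 46, 66 and 55 in Controls 1 to 3 and 114, 55 and 64 in CMS 1 to 3. Log2 differences were 0.12 ± 0.24 (SE) for miR-139-5p and 0.42 ± 0.31 for miR-139-3p (limma adjusted p = 0.82 and 0.423). The direction for miR-139-5p turned without CMS 1, at -0.10, and without Control 1, at -0.05, and it was -0.02 with trimmed-mean rescaling of the libraries.

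The arms of miR-151 had group differences of unlike size, given here arm by arm. In human liver cancer miR-151-5p is known for acting with the product of its host gene, focal adhesion kinase, on cell migration. The level of miR-151-5p was 169, 351 and 305 in Controls 1 to 3 and 136, 119 and 161 in CMS 1 to 3. All CMS libraries were below all Controls, although Control 1 was close to the highest of them. The mean ± SD was 275 ± 94.6 over the 3 Controls and 138.7 ± 21.1 over the 3 CMS libraries, a ratio of 0.504. The log2 difference of -0.93 ± 0.30 (SE) did not pass (limma adjusted p = 0.143). Without Control 1 it was -1.24 ± 0.16 and passed (limma adjusted p = 0.0309), and it passed in none of the other 14 alternative fits.

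The values of the more abundant arm, miR-151-3p, were 659, 879 and 934 in Controls 1 to 3 and 878, 879 and 727 in CMS 1 to 3. Control 1 was again the lowest Control, here also the lowest of all libraries, and the groups overlapped. The log2 difference was 0.02 ± 0.17 (SE; limma adjusted p = 0.999), and its sign turned to negative in 5 of the 15 alternative fits.

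The host gene of miR-488 acts in neuronal migration, and variants near miR-488 have been linked to panic disorder in a human study. By value, nearly all of miR-488 was the 3p arm. The level of miR-488-3p was 1160, 1256 and 1176 in Controls 1 to 3 and 1072, 1584 and 1422 in CMS 1 to 3, with overlapping groups. Its log2 difference was 0.16 ± 0.16 (SE; limma adjusted p = 0.56). Control 1 was the lowest Control, close to Control 3.

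The minor arm miR-488-5p was the 1 member that passed over all miRNAs. Its values were 3, 2 and 2 in Controls 1 to 3 and 8, 5 and 7 in CMS 1 to 3. Every CMS library stood above every Control library, but all are small whole numbers, so rounding alone is a sizeable part of each. The mean ± SD went from 2.33 ± 0.58 to 6.67 ± 1.53 (n = 3 each), a ratio of 2.86, and the log2 difference was 1.19 ± 0.23 (SE; limma adjusted p = 0.0486). By p it was the 27th of the 27 miRNAs called. The call was lost without Control 2, without Control 3 or without any 1 CMS library (limma adjusted p from 0.0737 to 0.172), and with quantile normalization or trimmed-mean rescaling (limma adjusted p = 0.0536 and 0.0619). The log2 difference itself was 1.07 to 1.36 in those fits with a library left out, 1.06 with quantile normalization and 1.08 with rescaling. Its size depended on the pseudocount, the number added to each value before the log. With a pseudocount of 10 in place of 1 it was 0.43 ± 0.08 (SE), and with 0.1 it was 1.47 ± 0.27.

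MiR-153 is known for repressing the alpha-synuclein gene and, in zebrafish, the synaptic vesicle gene snap25. The level of miR-153-3p was 110, 232 and 201 in Controls 1 to 3 and 106, 152 and 173 in CMS 1 to 3. Control 1 and CMS 1 were low, and Controls 2 and 3 were above all CMS libraries. The minor arm miR-153-5p had values of 15, 20 and 14 in Controls 1 to 3 and 14, 6 and 9 in CMS 1 to 3, with 1 value shared by both groups. Log2 differences were -0.29 ± 0.34 (SE) for miR-153-3p and -0.75 ± 0.31 for miR-153-5p (limma adjusted p = 0.634 and 0.22).

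Counted together, 1 of the 10 arms passed over all miRNAs, a rise, where 4.11% of the 657 miRNAs tested passed in either direction, 3.35% upward and 0.761% downward. Groups did not overlap for 2 of the 10 arms, miR-151-5p downward and miR-488-5p upward, where 25.9% of all tested did not overlap, 19.6% upward and 6.24% downward. The median log2 difference of the 10 arms was -0.01 and the median of its size was 0.34, beside 0.08 and 0.33 over all tested. All 10 arms passed the filter on low values. With 3 rats against 3, an exact two-sided permutation test cannot reach a p under 0.1. The p-values printed are therefore those of limma, whose estimate of the spread draws on all miRNAs tested. They set the difference between the groups against the spread within groups of these 6 libraries.

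**Figure D2:**
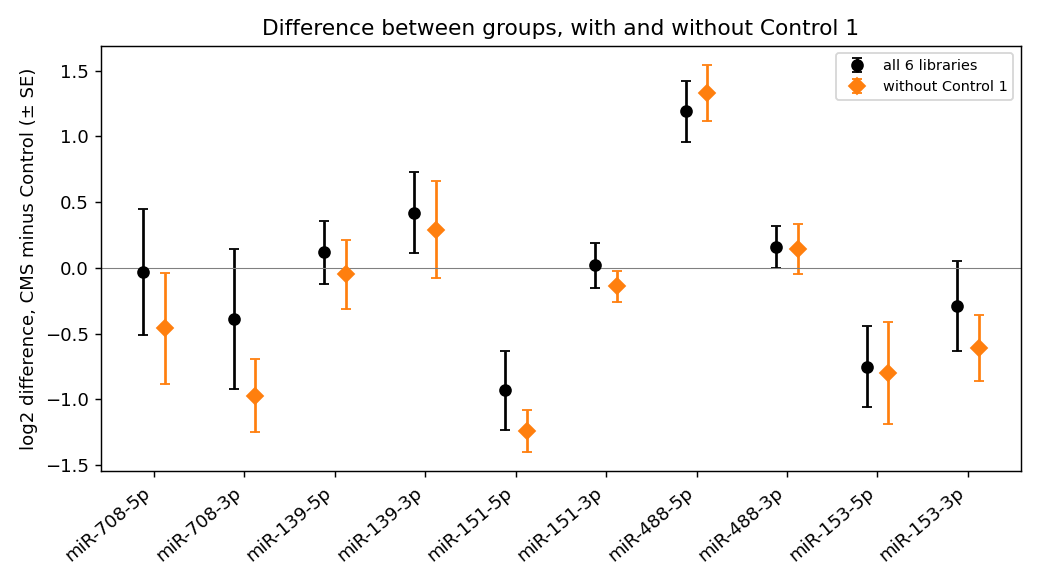
Log2 difference, CMS minus Control, of each arm from limma with its standard error, from all 6 libraries (circles) and without Control 1 (diamonds). Without Control 1 miR-708-3p moves from -0.39 to -0.97 and miR-151-5p from -0.93 to -1.24, while miR-488-3p goes from 0.16 to 0.14.

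Control 1 was the lowest Control for 8 of the 10 arms, which come from 5 hairpins and were chosen with its low values in view. How often it was the lowest Control over all miRNAs was not counted. The deviation of a library is given as its log2(value + 1) minus the mean of the other two libraries of its group. For Control 1 it was -1.74 for miR-708-3p and -1.28 for miR-708-5p. In percent of the mean of Controls 2 and 3, Control 1 had 29.7% of miR-708-3p and 40.9% of miR-708-5p. Deviations were -0.97 for miR-153-3p and -0.95 for miR-151-5p, and they lay between -0.49 and -0.38 for miR-139-5p, miR-151-3p and miR-139-3p. They were small for miR-153-5p (-0.15, and 0.07 with quantile normalization) and miR-488-3p (-0.07, and 0.13 with quantile normalization or 0.02 with trimmed-mean rescaling), and miR-488-5p was higher in Control 1 (0.42).

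Of 347 annotated miRNAs with a mean of at least 10, only miR-376a-3p, at -2.54, was lower in Control 1 than miR-708-3p. Between the arms of miR-708 in this order stood miR-543-3p (-1.72), miR-128-3p (-1.58) and miR-485-3p (-1.39), named after their values were seen. Deviations under -1 were found for 10 of the 347, or 2.88%, in Control 1 and for 1 to 8 of them in the other libraries. The median deviation of Control 1 was -0.47 over the 10 arms and -0.08 over the 347. It was negative for 9 of the 10 arms, or 7 with quantile normalization and 8 with trimmed-mean rescaling, and for 56.5% of the 347.

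Control 1 was not the only library from which the arms departed. In CMS 1 the median deviation of the 10 arms was 0.50 and in CMS 2 it was -0.49, beside 0.06 and -0.10 over the 347 annotated miRNAs. CMS 1 was high for miR-708-5p (1.01), miR-139-3p (0.93), miR-153-5p (0.84), miR-139-5p (0.65) and miR-708-3p (0.62), and low for miR-153-3p (-0.61) and miR-488-3p (-0.49). CMS 3 stayed closest to the others of its group, with a median size of deviation of 0.15, the same as over the 347. In Controls 2 and 3 the median deviation of the arms was 0.41 and 0.22, beside 0.06 and 0.02 over the 347. These 2 deviations are taken in part against Control 1.

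**Figure D3:**
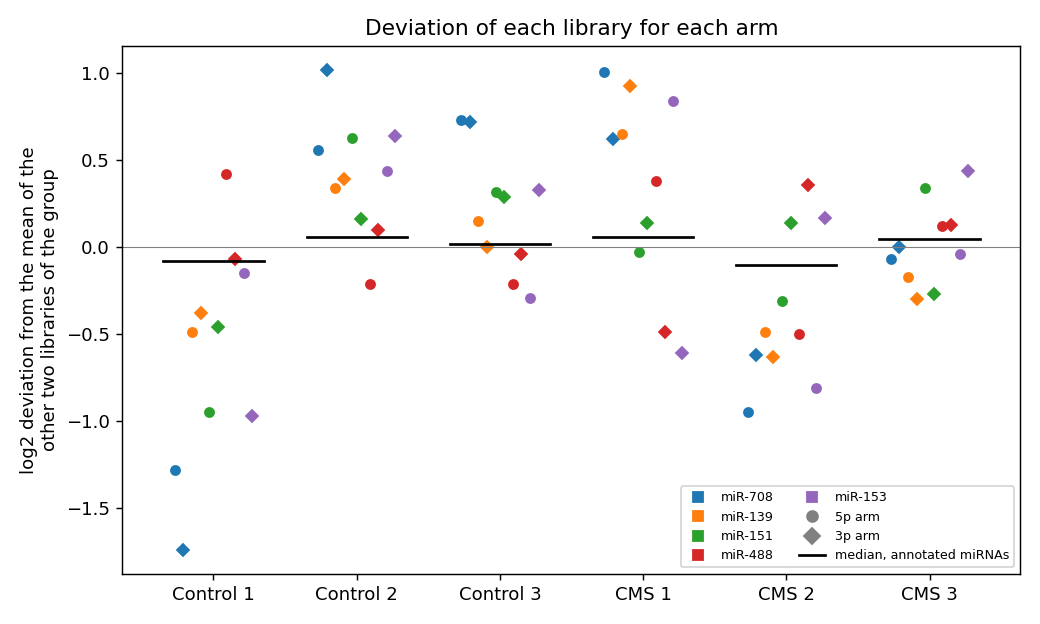
Deviation of each library, on the log2(value + 1) scale, from the mean of the other two libraries of its group, for each arm (colour by hairpin, circles 5p and diamonds 3p), with a bar at the median of 347 annotated miRNAs. In Control 1, 9 of the 10 arms lie below 0 (7 with quantile normalization, 8 with trimmed-mean rescaling), beside 56.5% of the 347, with both arms of miR-708 the lowest, and in CMS 1 both arms of miR-708 and of miR-139 lie at 0.62 or more.

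Leaving out Control 1 made 2 arms pass in place of 1, miR-488-5p (limma adjusted p = 0.0385) and miR-151-5p. The log2 difference of miR-708-3p went from -0.39 to -0.97 ± 0.28 (SE) without Control 1, which did not pass (limma adjusted p = 0.107). That of miR-153-3p went from -0.29 to -0.61 ± 0.25 and that of miR-708-5p from -0.03 to -0.46 ± 0.42 (limma adjusted p = 0.179 and 0.508). Over all miRNAs, 55 of 645 passed without Control 1, against 27 of 657 with all libraries.

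Markers of other cells also differed between the libraries. The summed value of the 14 listed neuronal arms, 13 of them with a value, was 87864 in Control 1 against 119749 and 119420 in Controls 2 and 3, and 97428 to 106528 in CMS. Within it, miR-128-3p alone was at 18158 in Control 1, 54214 in Control 2 and 54272 in Control 3. Without miR-128-3p, a sum added after the values were seen, Control 1 was the highest Control, at 69706 against 65535 and 65148, with 68429 to 86715 in CMS. Most of that remaining sum was miR-9a-5p, at 59815, 53474 and 52742 in Controls 1 to 3, which sets this order. Beside miR-128-3p and miR-9a-5p, the rest of the neuronal sum was lowest in Control 1 among the Controls. Within that rest, miR-124-3p was 2299, 2059 and 2498 in Controls 1 to 3. The 20 listed arms of choroid plexus, ependyma and epithelium, of which 15 had a value and 5 were listed at 0 in every library, summed to 2136 in Control 1, against 1203 in Control 2, 1228 in Control 3 and 1136 to 2020 in CMS. The part of these cells in the deviations of Control 1 was not tested.

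Of the sum for choroid plexus, miR-204-5p alone made 1413 in Control 1, 687 in Control 2 and 652 in Control 3. Of the epithelial members of that list, miR-429 was at 0 or 1 in the Controls and at 2, 0 and 1 in CMS 1 to 3. The values of miR-200b-3p were 7, 2 and 8 in Controls 1 to 3 and 27, 11 and 24 in CMS 1 to 3. Those of miR-200a-3p were 11, 4 and 6 in Control and 22, 8 and 22 in CMS. Also listed, miR-449a-5p had 18, 18 and 20 in Control and 3, 16 and 10 in CMS. None of the 14 arms tested from that list passed. The 10 vascular arms summed to 18128, 22553 and 21914 in Controls 1 to 3 and 30677, 19360 and 23102 in CMS 1 to 3. Within each group the libraries had the same order in this sum as in miR-139-5p. The part of vascular cells in the level of miR-139-5p was not tested. Sums of the 5 blood arms were 177 to 351 in Control and 260 to 443 in CMS, of the 5 oligodendrocyte arms 1932 to 2177 and 1888 to 3160, and of the 8 muscle arms 35 to 73 and 17 to 64.

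The share of the 2 arms differed widely between the hairpins and is shown with the precursors of 3 of them. It describes which arm had the higher value, and whether sequencing weighs both arms alike was not tested. Capitals mark the mature arms, the 5p arm first.
miR-139: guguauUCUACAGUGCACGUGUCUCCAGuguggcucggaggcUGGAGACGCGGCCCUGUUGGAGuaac
miR-488: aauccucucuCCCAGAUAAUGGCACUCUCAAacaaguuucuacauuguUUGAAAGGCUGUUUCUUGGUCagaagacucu
miR-153: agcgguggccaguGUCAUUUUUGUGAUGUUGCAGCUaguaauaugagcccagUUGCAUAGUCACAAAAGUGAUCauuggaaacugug

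The 5p arm made 97.7% to 98.5% of both arms of miR-139, but 0.2% to 0.7% of miR-488 and 3.8% to 12% of miR-153. It made 11.9% to 28.5% of miR-151 and 41.9% to 58% of miR-708, whose arms were thus nearly equal. The main arms miR-139-5p, miR-488-3p and miR-153-3p all begin with U. Their partners begin with U in miR-139-3p, C in miR-488-5p and G in miR-153-5p, and the nearly equal arms of miR-708 begin with A (5p) and C (3p).

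Whether stress went with another choice of arm was asked with the ratio of the 3p to the 5p value, which does not depend on a scaling factor of the library. For miR-151 the ratio was 3.9, 2.5 and 3.06 in Controls 1 to 3 and 6.46, 7.39 and 4.52 in CMS 1 to 3. The CMS libraries all had more 3p per 5p than any Control, with means of 3.15 ± 0.70 and 6.12 ± 1.47 (mean ± SD, n = 3 each). The log2 difference of the ratio was 0.94 ± 0.26 (SE), and it did not pass over the 144 hairpins with both arms (limma adjusted p = 0.0792). It passed without Control 1 (1.11, limma adjusted p = 0.0255), where 45 of 142 hairpins passed, against 8 of 144 in the main fit. It also passed in the fit limited to arms with a mean of at least 10 (limma adjusted p = 0.0258), as did 19 of 91 hairpins. With a pseudocount of 10 it passed as well (limma adjusted p = 0.0107), as did 34 of 144.

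For miR-488 the ratio was 387, 628 and 588 in Controls 1 to 3 and 134, 317 and 203 in CMS 1 to 3. Groups did not overlap, and the 5p values behind these ratios are 2 to 8. The log2 difference was -1.03 ± 0.31 (SE; limma adjusted p = 0.0817). It passed without Control 1 (-1.19, limma adjusted p = 0.0386), where 45 of 142 hairpins passed. With a pseudocount of 10 it was -0.27 ± 0.21.

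The other hairpins showed smaller differences in arm use. For miR-708 the ratio was 0.902, 1.38 and 1.11 in Controls 1 to 3 and 0.724, 1.01 and 0.894 in CMS 1 to 3, so the groups overlapped. Its log2 difference was -0.36 ± 0.23 (SE; limma adjusted p = 0.297). For miR-139 the CMS ratios of 0.019 to 0.023 were above the Control ratios of 0.015 to 0.017, with a log2 difference of 0.30 ± 0.18 (limma adjusted p = 0.278). For miR-153 the ratios were 7.33, 11.6 and 14.4 in Controls 1 to 3 and 7.57, 25.3 and 19.2 in CMS 1 to 3, with a log2 difference of 0.46 ± 0.44 (limma adjusted p = 0.495). None of the 5 hairpins passed and 2 had an unadjusted limma p under 0.05, where 5.56% and 31.2% of the 144 hairpins did. Ratios of 3 of the 5 did not overlap between groups, where 36.8% of the 144 did not.

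**Figure D4:**
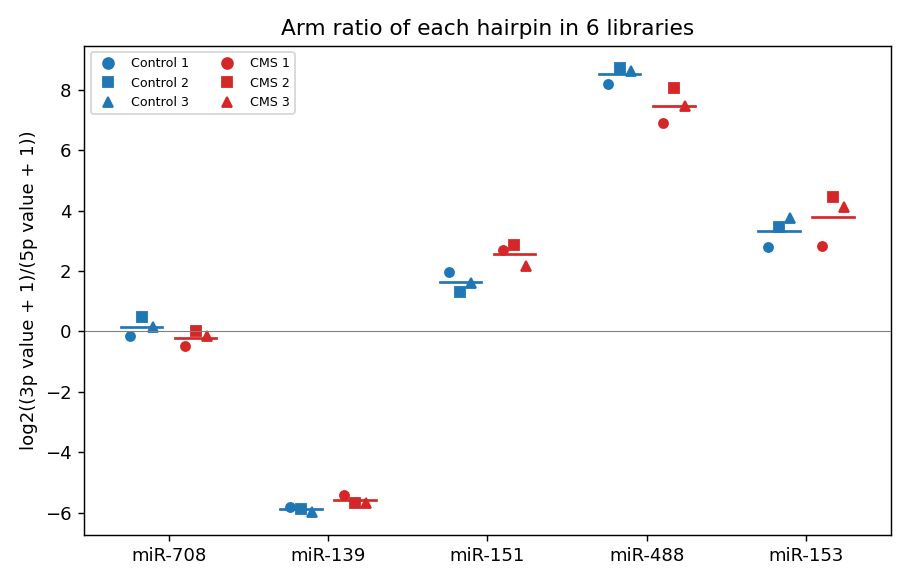
Arm ratio of each hairpin as log2((3p value + 1)/(5p value + 1)) in each of the 6 libraries, with a bar at each group mean. Ratios of miR-151 lie between 1.32 and 1.96 in Control and between 2.17 and 2.87 in CMS, and those of miR-488 between 8.18 and 8.71 and between 6.9 and 8.05.

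How far the arms of a hairpin moved together was described by the root mean square (RMS) difference of their log2(value + 1) profiles over the 6 libraries, each centred on its own mean. For miR-708 this was 0.29, and 3 of 338 annotated miRNAs with a mean of at least 10 were closer to miR-708-3p than its own other arm. These were miR-485-3p (0.19), miR-128-3p (0.24) and miR-132-5p (0.27), against a median of 0.70 over the 338. All 3 were lowest or next to lowest in Control 1 and highest in Controls 2 and 3, as with miR-132-5p at 404, 807 and 786 in Controls 1 to 3.

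For miR-139 the RMS difference of the arms was 0.183, and 17 of the 338 were closer to miR-139-5p. Closest was miR-143-3p (0.069), a miRNA of smooth muscle cells and a member of the vascular list, with 9601, 12019 and 11706 in Controls 1 to 3 and 15683, 9402 and 11314 in CMS 1 to 3. Next came miR-125b-1-3p (0.106) and miR-369-5p (0.113). The arms of miR-151 were farther apart, at 0.549, and 305 of the 338 were closer to miR-151-3p than miR-151-5p was. The closest were miR-361-3p (0.091), miR-195-3p (0.104) and miR-433-3p (0.104).

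The arms of miR-488 differed by 0.634 and those of miR-153 by 0.614, in both cases with a low partner that rounding affects. Closest to miR-488-3p were miR-873-3p (0.089), miR-298-5p (0.097) and miR-99b-3p (0.109). Closest to miR-153-3p were miR-32-5p (0.101), miR-136-5p (0.127) and miR-341 (0.141). These are likenesses over 6 libraries of 1 tissue, which share their library and its normalization.

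Beside the 5 hairpins, a list of other miRNAs that lie in introns of protein-coding genes in human or mouse was counted. Of its 87 rows, 72 were tested, 4 rose and none fell, with a median log2 difference of 0.12. Those that rose were miR-490-5p and miR-490-3p of the muscarinic receptor gene Chrm2, miR-27b-5p of Aopep and miR-128-1-5p of R3hdm1. That is 5.56% of those tested, beside 3.35% of all miRNAs. All 4 had group means of at most 33.3, and 3 of them, like miR-488-5p, are the less abundant arm of their hairpin.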

How the data were processed

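Per the labels' protocols, miRNA libraries of 6 rats were run on an Illumina NextSeq, and the submitters' processing notes name Novoalign 2.07.11. For the build, the annotation and the normalization, nothing is given in the sources used here. Values in the deposited table were treated as a score, a normalized value that the authors rounded: library sums differed by at most 3.72%, and at means of 1 to 8 the ratio of variance to mean among replicates was 0.523 for 181 miRNAs in Control and 0.537 for 195 in CMS, below what counted reads allow. Blanks were taken as 0.

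Members and lists were chosen with earlier results of these data known. The rule by name also takes miR-153-5p, which a list of 9 arms made before the fits did not hold. Differences came from limma-trend (limma 3.58.1, R 4.3.3) on log2(value + 1), for rows at 1 or more in 3 or more libraries, with Benjamini-Hochberg adjustment over 657 miRNAs and a threshold of 0.05. Arm ratios were fitted with limma over 144 hairpins. Scripts were tested on simulated data. Named beside the members were both arms of miR-28, up to 4 other intronic miRNAs by smallest p with any that passed, and the 3 miRNAs of closest profile to the main arm of each hairpin. Alternatives were other pseudocounts, filters and scalings, no trend, annotated miRNAs alone, each library left out, and a replicate block. Sequences are RefSeq's, from GRCr8, read by name.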

Additional observations from a re-analysis of the deposited data

How the results depend on the processing

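The count of 1 passing arm, miR-488-5p, was 1 with a pseudocount of 0.1 and without a mean-variance trend. It was 0 with a pseudocount of 10, no filter, a minimum mean of 10 (which leaves miR-488-5p out), quantile normalization, trimmed-mean rescaling, annotated miRNAs only and the replicate block, and 0 to 2 with each library left out. Over all miRNAs, 27 of 657 passed in the main fit, 40 with a pseudocount of 0.1 and 32 without a trend. A pseudocount of 10 gave 18, quantile normalization 23, rescaling 22 and the replicate block 1. Passes were 22 of 754 without a filter, 25 of 399 with the minimum mean and 11 of 468 annotated miRNAs. With libraries left out, they ran from 2 of 635 without CMS 1 to 55 of 645 without Control 1. The count of 0 hairpins with a changed arm ratio became 1 (miR-151) with a pseudocount of 10 and with a minimum mean of 10. It was 0 to 2 with each library left out and 0 in the other alternatives, the replicate block included. Over all hairpins, 8 of 144 passed in the main fit, 34 with a pseudocount of 10 and 19 of 91 with the minimum mean. With libraries left out, they ran from 1 of 140 without CMS 1 to 45 of 142 without Control 1. The cause of these shifts was not tested.

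Signs turned for miR-139-5p (-0.02 with trimmed-mean rescaling, -0.05 without Control 1, -0.10 without CMS 1, the range over libraries left out being -0.10 to 0.28), for miR-151-3p (-0.09 with quantile normalization, -0.12 with rescaling, -0.14 without Control 1, -0.03 without CMS 1 and also without CMS 2) and for miR-708-5p (0.16 without Control 2, 0.21 without Control 3, 0.29 without CMS 2, with a range of -0.46 to 0.29). Quantile normalization and rescaling shifted all log2 differences by medians of -0.12 and -0.13, so smaller differences are relative to the scaling. Of 149 alternative values of member differences, 126 kept their sign and side of the threshold, as did 60 of 64 for arm ratios. Of 40 for the deviation of Control 1, 37 moved by less than the SD among Controls. Exceptions were miR-488-3p, at 0.13 with quantile normalization and 0.02 with rescaling, and miR-488-5p, at 0.12 with a pseudocount of 10. Deviations of same-numbered libraries correlated at -0.11, -0.02 and -0.05, which cannot show whether replicate numbers paired the rats. The depth is unknown and could not be weighed.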
